A study of Mus musculus with 5 samples.

Results

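Germinal centre B cells of immunised mice gave 1826 intervals bound by IRF8 in chromatin immunoprecipitation followed by sequencing (ChIP-seq), and 482 of them (26.4%, exact Clopper-Pearson 95% interval 24.4 to 28.5%) were promoter intervals. A promoter interval has its centre at most 1000 bp from the start of transcription (the TSS) of a protein-coding gene in GENCODE M1, the annotation of the mm9 mouse genome. All mice were wild type C57BL/6. The germinal centre cells were sorted at day 13 after immunisation with the hapten-carrier conjugate NP-KLH and precipitated with the anti-IRF8 antibody C-19; the labels call them fresh, and the design text says that they were flash frozen. The comparison lists came from naïve splenic B cells cultured with 10 µg/ml of lipopolysaccharide (LPS), precipitated with anti-IRF4 (M-17) or anti-IRF8 (C-19) after 48 h or 72 h. They held 1573 peaks for IRF4 at 48 h, 898 for IRF4 at 72 h, 234 for IRF8 at 48 h and 1059 for IRF8 at 72 h. Each of the 5 groups was 1 library, so every test here describes these lists and not the conditions; whether mice were pooled is not stated. The germinal centre list was called with MACS and the LPS lists with HOMER, so caller and cell type cannot be told apart.

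IRF8 is a transcription factor of the interferon regulatory factor family that is abundant in germinal centre B cells, the dividing cells that mutate their antibody genes and are selected on antigen. It binds DNA weakly alone. With another family member it binds the interferon-stimulated response element (ISRE), a tandem of GAAA repeats, and together with PU.1 or SpiB, which are ETS factors, it binds the composite ETS-IRF element (EICE). Its relative IRF4 binds the same elements and, with AP-1 factors of the BATF and JUN families, composite AP-1-IRF elements; IRF4 rises in cells that become plasma cells.

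The ISRE core searched here was GAAANNGAAA, on both strands, and 171 of the 482 promoter intervals (35.5%, 31.2 to 39.9%) held it. The sequences below show this core, in capitals, near the start sites of the named genes. Apart from Cflar, these are genes for antigen processing and the interferon response. Cflar is on the apoptosis list described further on. Each sequence runs 5′ to 3′ on the strand of its gene. A core in capitals beginning with TTTC therefore lies on the opposite strand.
Erap1: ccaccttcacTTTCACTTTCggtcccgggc
Tap1: cgaggtcggcTTTCGGTTTCttcttcctct
Tap2: gcagtgaagtGAAAGCGAAAgccgcgggac
Psme2: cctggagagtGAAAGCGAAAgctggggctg
Ctss: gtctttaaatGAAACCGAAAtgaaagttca
Nmi: tctaataaccGAAAGTGAAAgtaaggcctg
Oas1b: ccgggaaatgGAAACTGAAAgtcccatttc
Gbp7: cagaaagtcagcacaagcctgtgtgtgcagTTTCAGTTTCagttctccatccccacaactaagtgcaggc
Socs1: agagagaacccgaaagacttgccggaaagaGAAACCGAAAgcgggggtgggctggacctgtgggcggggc
Cflar: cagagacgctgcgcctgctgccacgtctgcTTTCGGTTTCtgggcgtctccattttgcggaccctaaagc
On the plus strand these are chr13:74777287-74777316 (Erap1), chr17:34324633-34324662 (Tap1), chr17:34341436-34341465 (Tap2), chr3:95330677-95330706 (Ctss), chr5:121262618-121262647 (Oas1b), chr3:142193217-142193286 (Gbp7) and chr1:58768311-58768380 (Cflar). On the minus strand these are chr14:56209764-56209793 (Psme2), chr2:51828524-51828553 (Nmi) and chr16:10785667-10785736 (Socs1). All positions are in mm9. The core was centred 20 bp upstream of the start of Erap1, 2 bp upstream of that of Nmi, 14 bp upstream of that of Oas1b and 16 bp upstream of that of Ctss. In those of Gbp7, Tap2, Socs1, Psme2 and Tap1 it lay 50, 62, 72, 78 and 100 bp upstream. These examples lie closer to the start than most. Over the 171 intervals the nearest ISRE lay a median of 368.5 bp from the TSS. Of all 319 matches in promoter intervals, 34.5% lay within 250 bp of the TSS and 48.3% lay upstream of it.

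At 18 promoter intervals (3.73%, 2.23 to 5.84%) an EICE ran directly into an ISRE and shared its GAAA, giving the letters GGAANNGAAANNGAAA. This arrangement was noticed in the printed sequences and is given as a description. None of the 482 flanks of equal length held it, which allows a share of up to 0.762%, and it was found in 0.311% of the promoters of 22202 protein-coding genes. The other 1344 germinal centre intervals held it at 3.05% (2.20 to 4.12%). In the 9 examples below the capitals mark the whole joined element.
Psmb8: ctgtggcTTTCGCTTTCACTTCCttgtcgc
Psme1: gctgtgcTTTCGCTTTCCCTTCCcgctgcc
Irgm2: atttccaGGAACTGAAACTGAAAgctgttc
Tgtp1: atttccaGGAATCGAAACTGAAAcctacct
Parp14: atttccaGGAAATGAAAGCGAAAgaagtta
Parp9: ggcaaagTTTCAGTTTCGATTCCccagaag
Mov10: cggcgacTTTCAGTTTCATTTCCgcggacc
Irf2: gacgtggGGAAGTGAAAATGAAAttgactt
Usf1: cggacagTTTCACTTTCAGTTCCcttttgt
On the plus strand these are chr17:34335283-34335312 (Psmb8), chr14:56197333-56197362 (Psme1), chr11:58028402-58028431 (Irgm2), chr16:35939051-35939080 (Parp9), chr8:47824845-47824874 (Irf2) and chr1:173342432-173342461 (Usf1). On the minus strand these are chr11:48805809-48805838 (Tgtp1), chr16:35871506-35871535 (Parp14) and chr3:104621023-104621052 (Mov10). Psmb8 encodes a catalytic subunit of the immunoproteasome and Psme1 a subunit of its activator; Irgm2 and Tgtp1 encode interferon-induced GTPases, Parp9 and Parp14 interferon-stimulated ADP-ribosyltransferases, Mov10 an antiviral RNA helicase, Irf2 a member of the same factor family and Usf1 an E-box-binding factor. Of the 18 intervals, 10 lay at genes on the antigen presentation and interferon lists described further on. In the LPS cultures 8 of the 18 (44.4%, 21.5 to 69.2%) were held, each by the IRF8 72 h list, against 8.09% of all promoter intervals. That list held 16.4% of the promoter intervals with an ISRE and 18.75% of those with an EICE. The 8 include Clic5, whose joined element is not shown and lay in a run of purines. Its interval held 10 or more ISRE matches.

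Where no ISRE lay near the start, some promoter intervals carried the EICE, GGAANNGAAA, alone. The first sequence belongs to H2-DMb2, a chain of the class II peptide exchanger, whose interval was held by all 4 LPS lists. The second belongs to Dapp1, an adaptor of B cell receptor signalling. The capitals mark the EICE.
H2-DMb2: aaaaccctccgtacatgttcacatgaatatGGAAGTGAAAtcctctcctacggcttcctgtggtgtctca
Dapp1: agcaaccaagTTTCACTTCCttgctagcca
On the plus strand these are chr17:34280095-34280164 (H2-DMb2). On the minus strand these are chr3:137644508-137644537 (Dapp1). The H2-DMb2 interval also held an ISRE, 548 bp upstream of the start, and its EICE was centred 122 bp upstream; the Dapp1 interval held no ISRE.

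The promoter intervals were about 1 kb wide and sat close to the start sites. Their median width was 1137 bp (quartiles 901 and 1477, range 422 to 3605), against 1148 bp for the other intervals. The median distance between centre and TSS was 290 bp. The centre lay within 250 bp of the TSS in 208 intervals (43.2%), and 377 (78.2%) covered the TSS. It was downstream of the TSS in 286 (59.3%, 54.8 to 63.8%) and upstream in 194. By annotation the centre fell in an intron in 229 intervals, between genes in 127, in an untranslated region in 70 and in a coding exon in 56. The share with an ISRE was similar close to the TSS and farther away: 35.6% (29.1 to 42.5%) of the intervals centred up to 250 bp from it and 35.4% (29.7 to 41.4%) of the rest. Just inside the 1000 bp limit lay the interval of Amigo2 (992 bp), and the first outside were those of N4bp1 (1006 bp) and Akap13 (1037 bp).

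**Figure D1:**
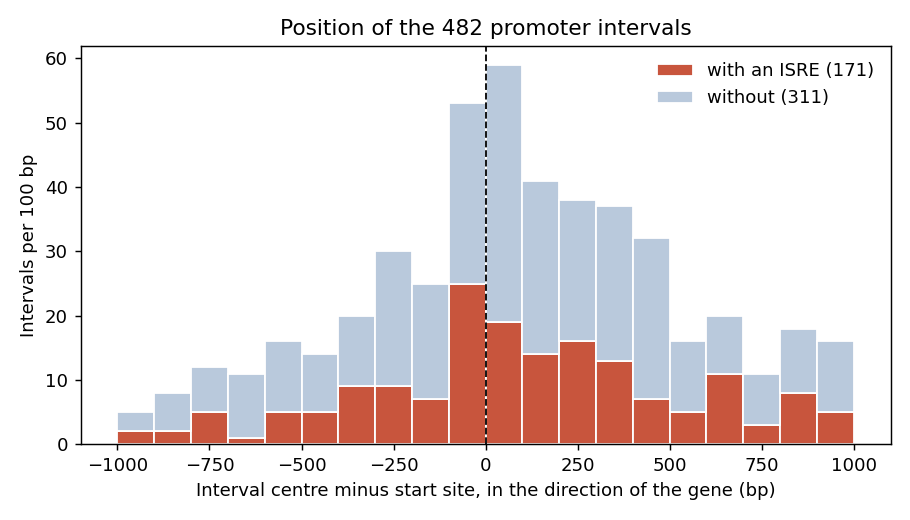
Number of promoter intervals per 100 bp (vertical axis) by the distance of the interval centre from the TSS in bp, negative upstream (horizontal axis); red marks the 171 intervals with an ISRE and pale blue the 311 without. The centres crowd around the TSS, with 286 of 482 downstream of it, and intervals with an ISRE occur at all distances.

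The 5 widest single-copy promoter intervals were those of Gadd45g (3605 bp), Socs1 (2988 bp), Elmo1 (2875 bp), the start shared by 5033414D02Rik and Cd274 (2681 bp) and Bcar3 (2515 bp). Gadd45g is a stress response gene, Socs1 an inhibitor of cytokine receptor kinases, and Cd274 encodes the T cell inhibitory ligand PD-L1. Gadd45g held 3 ISRE matches, Socs1 2 and the Cd274 promoter 1, while Elmo1, which encodes a Rac activator, and Bcar3 held none.

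Bidirectional promoters, where 2 protein-coding genes start on opposite strands within 1000 bp and run apart, carried 43 of the intervals (8.92%, 6.53 to 11.8%). The gap between the paired starts had a median of 123 bp and ran from 4 bp at Gnpat and 2810004N23Rik to 853 bp at Mpst and Tst. In 26 of the 43 the interval covered both starts, and in 6 its centre lay between them. Counted over genes, 53 of the 471 distinct nearest genes (11.3%, 8.54 to 14.5%) had a bidirectional promoter, against 9.58% of all protein-coding genes. Over all 529 genes with an interval within 1000 bp of their start the share was 98 (18.5%, 15.3 to 22.1%), against 9.36% of the other genes; that count can take both genes of a pair from 1 interval. An ISRE was present in 19 of the 43 (44.2%, 29.1 to 60.1%) and in 152 of the 439 other promoter intervals (34.6%, 30.2 to 39.3%). These exact intervals overlap.

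Tap1 and Psmb9 share 1 such promoter, with starts 38 bp apart and 1 interval over both; Tap1 encodes a chain of the peptide transporter and Psmb9 an immunoproteasome subunit. Psme2, the partner subunit of Psme1, faces Rnf31, a subunit of the linear ubiquitin chain ligase, across 595 bp. Psma2, a core proteasome subunit, faces Mrpl32, a mitochondrial ribosomal protein gene, across 217 bp. Each of these 3 intervals held an ISRE. In 2 single-copy bidirectional intervals the ISRE lay between the starts: those of Oas1b and Oas1c (gap 121 bp), antiviral oligoadenylate synthetase genes, and of Cog8 and Nip7 (gap 188 bp), a Golgi and a ribosome assembly gene.

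ISRE, EICE and common promoter elements were more frequent inside the intervals than in flanks of the same total length, and the AP-1 difference did not pass the test. The ISRE was found in 35.5% of intervals and 17.4% of flanks: 132 intervals held it where their flank did not, and 45 flanks where their interval did not (exact McNemar test, two-sided, adjusted p = 4.92e-10 over 12 elements). The EICE was found in 16.6% and 7.88% (adjusted exact p = 8.59e-05). In windows of 1137 bp around the first start of 22202 protein-coding genes the shares were 12.9% for the ISRE and 9.92% for the EICE. The AP-1 site (TGACTCA or TGAGTCA) was found in 16.4% of intervals and 17.2% of flanks (adjusted exact p = 0.866), and in 13.6% of all promoters. The AP-1-IRF element AICE1 was found in 1 interval and no flank.

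Elements common to promoters in general were also more frequent in the intervals. The SP1 site GGGCGGG was in 54.4% of intervals, 37.1% of flanks (adjusted exact p = 4.47e-07) and 48.0% of all promoters. The promoter-type ETS site CCGGAAGT was in 8.92% of intervals and 3.53% of flanks (adjusted exact p = 0.002), and the YY1 site AANATGGCG in 7.05% and 2.91% (adjusted exact p = 0.005); all promoters held these at 7.28% and 6.58%. In windows reaching 100 bp to each side none of these 3 passed, and the SP1 site was in 14.3% of interval centres and 15.4% of flanking windows (adjusted exact p = 1). The PU.1-type ETS site GAGGAAGT (12.9% and 9.75%), the E-box CACGTG (21.8% and 16.6%, adjusted exact p = 0.095), the NFY site CCAATNAG, the CRE TGACGTCA and the NRF1 site did not pass. For 3 of these the call depended on the flank or the distance taken: PU.1-type ETS passed against the upstream (adjusted exact p = 0.025), downstream (0.045) and 5000 bp-away flanks (0.047), E-box against the downstream (0.032) and 5000 bp-away flanks (0.004) and within 500 bp of a TSS (0.012), and NRF1 against the downstream and 5000 bp-away flanks (0.037 each). The YY1 call was lost with promoters taken to 2500 bp (0.077). Base composition moved with these shares: the median G+C content was 55.4% in the intervals, 50.1% in their flanks and 54.3% in all promoters, and its part in the result was not tested. Intervals with an ISRE had a lower median G+C content (52.3%) than those without (57.2%).

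**Figure D2:**
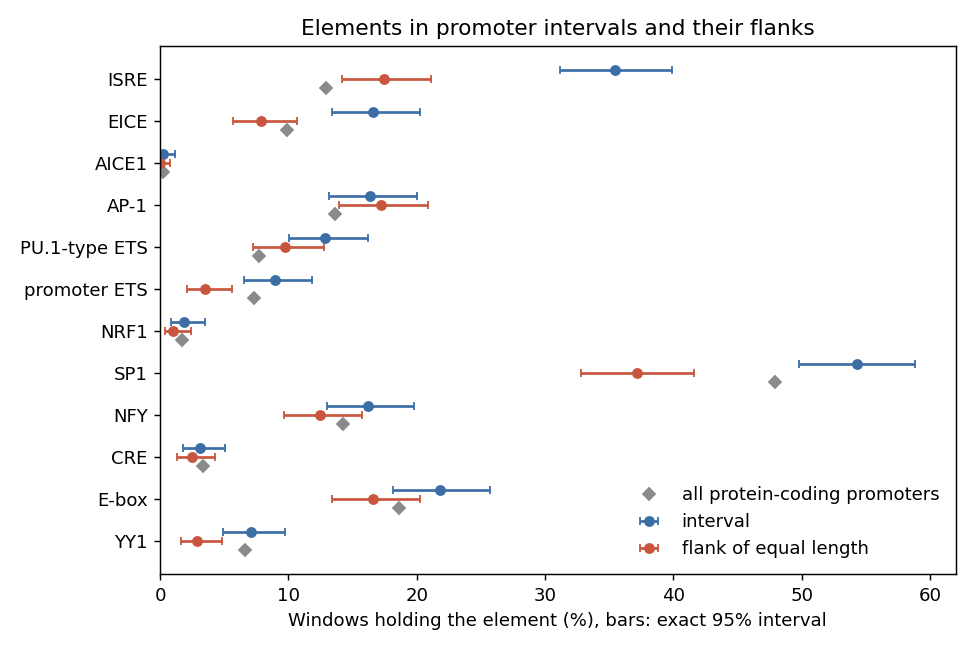
Share of windows holding each of 12 sequence elements (horizontal axis, %) for the 482 promoter intervals (blue), their flanks of equal length (red), both with exact 95% intervals, and all protein-coding promoters (grey diamonds). ISRE (35.5 against 17.4%) and EICE (16.6 against 7.88%) stand clear of flanks and of all promoters, and SP1 lies high in all 3 sets.

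Intervals with an ISRE match became rarer away from the centre, with each match placed by its middle. They numbered 49 within 100 bp of the centre (10.2% of intervals), 57 from 100 to 250 bp, 61 from 250 to 500 bp and 25 from 500 to 1000 bp, or 0.508, 0.395, 0.287 and 0.187 per kb searched, against 0.141 in the flanks. Counted by match, the density was 0.612, 0.568, 0.626 and 0.292 per kb in these zones and 0.159 in the flanks. It rested in part on 4 intervals with 10 or more matches, at Acyp2, 1110038F14Rik, Clic5 and Kdm5a (named after their values were seen), which gave 92 of the 319 matches. Without these 4 it was 0.565, 0.447, 0.361 and 0.206 per kb, and 0.161 in the flanks. Of the 171 intervals with a match, 42 had 2 or more.

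The bases between the GAAA repeats are compared with those of the other germinal centre intervals as a description, since matches within 1 interval are not independent. A spacer with at least 1 C or T, the form in which no run of purines can give the match, made up 50.5% (44.8 to 56.1%) of the promoter matches, 43.2% (33.0 to 53.7%) of the matches in their flanks and 19.9% (18.4 to 21.3%) of the matches in other intervals. The exact intervals of the promoter and flank values overlap. In the other intervals 79.1% of the matches came from intervals with 10 or more. In promoters the spacer CT made up 12.2% of matches, GT 10.7% and CC 7.52%; in the other intervals these were 3.47%, 2.90% and 1.78%, and GA alone was 50.4%. Counted by interval, the ISRE with a C or T in the spacer was in 27.8% of promoter intervals, 8.51% of their flanks, 6.45% of all promoters and 23.8% of other intervals. A longer ISRE, the core followed by C or G and then T, was in 11.6% of promoter intervals and 2.08% of flanks. It was in 1.76% of all promoters and 10.4% of other intervals.

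**Figure D3:**
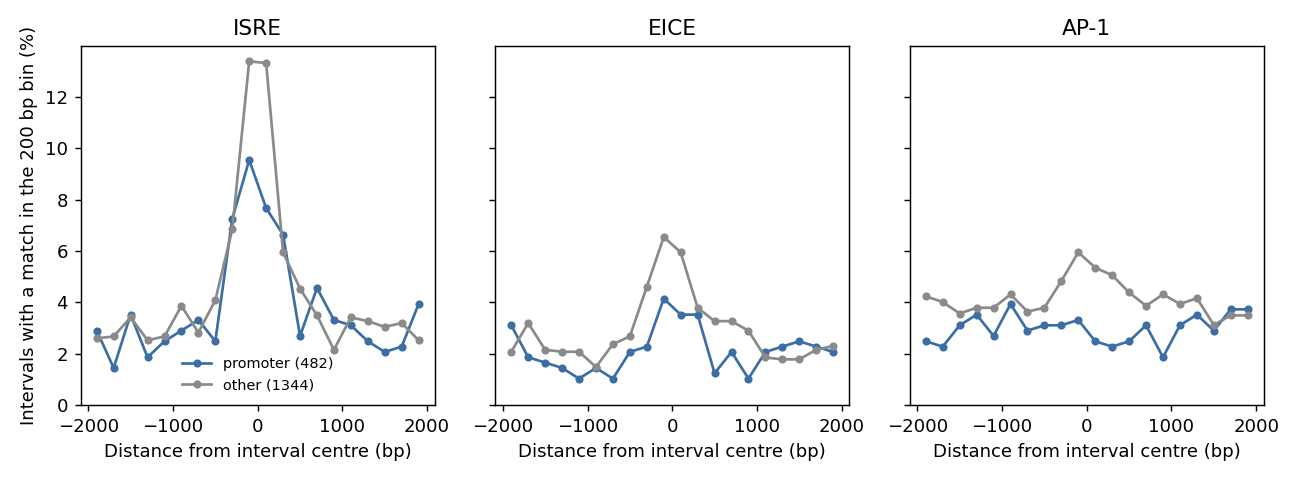
Share of intervals with a match in each 200 bp bin (vertical axis, %) by distance from the interval centre (horizontal axis, bp) for ISRE, EICE and AP-1, in the 482 promoter intervals (blue) and the 1344 other intervals (grey). ISRE and EICE peak at the centre in both sets, with 9.54% for ISRE in the bin just before the centre of promoter intervals against 13.4% in other intervals, while AP-1 is flat in promoters.

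Promoter intervals held fewer EICE and AP-1 sites than the other 1344 intervals, and the ISRE difference did not pass the test. The EICE was in 16.6% against 25.3% (two-sided Fisher's exact test with adjusted p = 1.76e-04 over 12 elements), the AP-1 site in 16.4% against 26.5% (adjusted exact p = 1.54e-05) and the PU.1-type ETS site in 12.9% against 17.4% (adjusted exact p = 0.036). The PU.1-type call was lost within 500 bp (adjusted exact p = 0.065) and 2500 bp of a TSS (0.095) and among narrower (0.279) and wider intervals (0.092). For the ISRE the shares were 35.5% and 38.0% (odds ratio 0.896, adjusted exact p = 0.383). The SP1 site went the other way, at 54.4% against 11.1% (adjusted exact p = 3.96e-76), and so did the promoter-type ETS (8.92% and 1.49%), YY1 (7.05% and 1.12%) and NRF1 sites (1.87% and 0.074%). The ISRE difference depended on the window. With the whole match within 100 bp of the centre the shares were 9.75% in promoters and 14.7% elsewhere (adjusted exact p = 0.011). Among intervals narrower than the median they were 21.6% and 32.04% (adjusted exact p = 0.006). Among the wider ones they were 49.8% and 43.9% (adjusted exact p = 0.156). Among the wider intervals the EICE difference, 24.5% and 31.2%, did not pass (adjusted exact p = 0.092). Few promoter intervals were repeated sequence within 100 bp of their centre: 6 (1.25%) against 136 of the other intervals (10.1%).

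The genes under these promoters were led by antigen presentation and the interferon response. In all, 529 of 22238 protein-coding genes (2.38%) had a promoter interval, and that share is the background for the lists that follow. Of 20 genes of MHC class I and peptide loading, 16 had one (80.0%, 56.3 to 94.3%), and 14 of these 16 held an ISRE. They covered the whole path: the immunoproteasome subunits Psmb8, Psmb9 and Psmb10, the activator subunits Psme1 and Psme2, the transporter chains Tap1 and Tap2, the loading factors Tapbp and Tapbpl, the chaperone Canx, the trimming peptidase Erap1, the light chain B2m and the heavy chains H2-K1, H2-M3, H2-Q7 and H2-T23. Canx and H2-Q7 were the ones without an ISRE. Calr, Pdia3, H2-D1 and H2-Q4 had no interval. The interval of B2m ran over chr2:121972629-121974187 with its ISRE 134 bp upstream of the start, and that of Erap1 over chr13:74776478-74778327.

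Among proteasome genes 8 of 48 had an interval (16.7%), all with an ISRE, and 5 of the 8 are the class I genes named above; the others were Psma2, Psma3 and the assembly factor gene Psmg4. MHC class II presentation had 3 of 16 (18.8%, 4.05 to 45.7%): Cd74, the invariant chain, Ctss, the protease that cleaves it, and H2-DMb2. The class II chain genes H2-Aa, H2-Ab1 and H2-Eb1 and their regulator Ciita had none.

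Of 45 interferon-stimulated antiviral genes, 16 had an interval (35.6%, 21.9 to 51.2%) and 14 of these held an ISRE. They included the RNA sensors Ifih1 and Dhx58, the ubiquitin-like Isg15, the virion tether Bst2, the nucleic acid sensor Zbp1, the exonuclease Isg20, Oas1b, Parp9, Parp12, Parp14 and the Parp9 partner Dtx3l. The strongly inducible Ifit1, Ifit2, Ifit3, Mx1, Mx2 and Rsad2 had none. Interferon-induced GTPases had 7 of 17 (41.2%, 18.4 to 67.1%): Gbp2, Gbp3, Gbp7, Gbp9, Irgm1, Irgm2 and Tgtp1, of which 6 held an ISRE. Receptors, STAT and IRF factors had 6 of 23 (26.1%, 10.2 to 48.4%), among them Irf2, Irf7 and Socs1. The receptor genes Ifnar1, Ifnar2, Ifngr1 and Ifngr2, Irf4 and Irf8 itself had none. Several members of these families are near-identical copies in clusters, so a read could be placed at the wrong copy.

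These 5 lists of antigen presentation and interferon genes accounted for 46 promoter intervals, 38 of them with an ISRE (82.6%, 68.6 to 92.2%). Of the 436 intervals at other genes 133 held an ISRE (30.5%, 26.2 to 35.1%). Most ISRE-bearing promoter intervals, 133 of 171 (77.8%), therefore lay at genes outside these lists.

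Lists of genes that define the B cell and its germinal centre programme had few intervals, at shares whose exact intervals include the 2.38% background. B lineage transcription factors had 1 of 23 (4.35%; Ikzf1, encoding Ikaros), B cell receptor signalling genes 2 of 23 (8.70%; the kinase Lyn and Dapp1), and germinal centre genes 1 of 17 (5.88%; Cxcr4, the chemokine receptor of dark zone cells). The germinal centre markers Bcl6, S1pr2 and Mybl1 had no promoter interval, 0 of the 7 markers in all. Markers of T cells (0 of 8), myeloid cells (0 of 7) and plasma cells (0 of 4) had none either. A peak shows binding and not expression, so these counts do not check the identity of the sorted cells. The apoptosis list had 4 of 25 (Bak1, Casp1, Casp8 and Cflar), with an exact interval of 4.54 to 36.1%. Toll-like receptor and NF-kappaB signalling had 4 of 28 (Rel, Tab2, Tlr6 and Tlr9), with an exact interval of 4.03 to 32.7%. Unlike the B cell and germinal centre lists, these had exact intervals that lay above the 2.38% background.

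Housekeeping and other lists lay near the background. Ribosomal protein genes had 4 of 83 (4.82%, 1.33 to 11.9%), mitochondrial ribosomal protein genes 4 of 76, histone genes 4 of 76, translation factors and tRNA synthetases 4 of 102, splicing factors 3 of 99, ubiquitin ligases of the Trim, Rnf and Fbx series 9 of 221 and Zfp genes 7 of 367 (1.91%). Myc and cell cycle genes had 1 of 28 (E2f1) and DNA repair genes 1 of 30 (Xrcc1). Respiratory chain and ATP synthase genes had 0 of 91, with an upper exact limit of 3.97%. The broader plasma cell, T cell and myeloid lists had 0 of 13, 0 of 12 and 0 of 12. Some of these counts rest on a neighbour: Rpl13a shared the interval of Flt3l, and Mrpl30, Mrpl32 and Mrpl43 were the partners of Mitd1, Psma2 and Peo1 at bidirectional promoters.

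**Figure D4:**
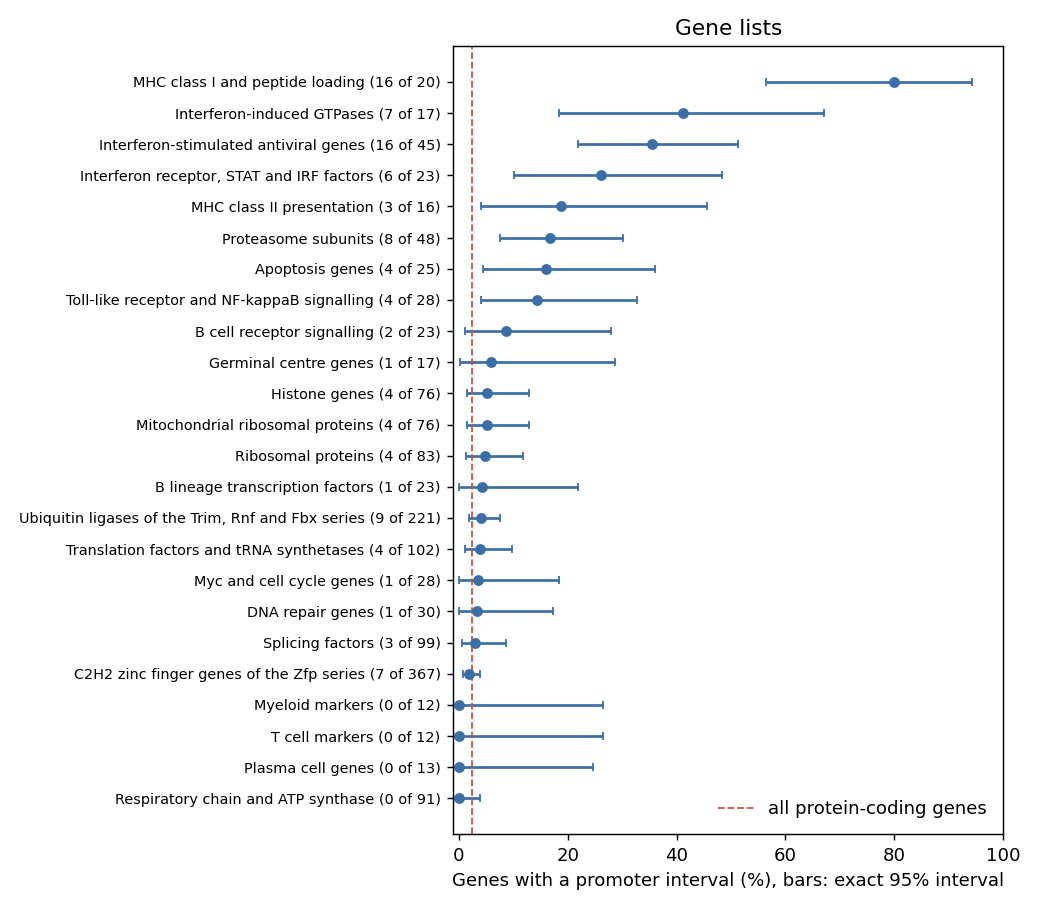
Share of the genes of each list with a promoter interval (horizontal axis, %), with exact 95% intervals and the counts beside each name; the dashed line is the 2.38% of all protein-coding genes. MHC class I and peptide loading (16 of 20), interferon-induced GTPases (7 of 17) and antiviral genes (16 of 45) lie farthest to the right.

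In the LPS cultures 70 of the 482 promoter intervals (14.5%, 11.5 to 18.0%) were held, that is overlapped by at least 1 bp, by a peak of any of the 4 lists. Over all 1826 germinal centre intervals the share was 19.8%, and over the other 1344 it was 21.7% (two-sided Fisher's exact test with adjusted p = 0.002 over 5 comparisons). IRF4 at 48 h held 22 promoter intervals (4.56%, 10.5% of all intervals, 12.6% of the others, adjusted exact p = 7.35e-07). IRF4 at 72 h held 34 (7.05%, 9.42% of all, 10.3% of the others, adjusted exact p = 0.045). IRF8 at 48 h held 6 (1.25%, 2.52% of all, 2.98% of the others, adjusted exact p = 0.045) and IRF8 at 72 h held 39 (8.09%, 11.1% of all, 12.1% of the others, adjusted exact p = 0.024). Held promoter intervals were wider, with a median of 1483 bp against 1092 bp for those held by none. Among intervals wider than the median, 22.8% of promoter and 27.5% of other intervals were held by any list (adjusted exact p = 0.284), and the IRF4 48 h difference alone still passed. With promoters taken only to 500 bp from the TSS, again that difference alone passed.

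Promoter intervals with an ISRE were held by the IRF8 72 h list more often than those without. That list held 28 of the 171 with an ISRE (16.4%, 11.2 to 22.8%) and 11 of the 311 without (3.54%, 1.78 to 6.24%), an odds ratio of 5.34 (two-sided Fisher's exact test with adjusted p = 9.98e-06 over 5 comparisons). For IRF4 at 72 h the counts were 15 (8.77%) and 19 (6.11%, adjusted exact p = 0.453), for IRF4 at 48 h 7 (4.09%) and 15 (4.82%, adjusted exact p = 1) and for IRF8 at 48 h 2 and 4 (adjusted exact p = 1). For any list they were 38 (22.2%) and 32 (10.3%, adjusted exact p = 0.002). Width moved with the element: the median was 1340 bp with an ISRE and 1057 bp without. Among the wider intervals the IRF8 72 h shares were 19.5% and 8.40% (adjusted exact p = 0.075). Among the 245 narrower ones they were 9.43% and 0.521% (adjusted exact p = 0.010). That call rests on few intervals, since the IRF8 72 h list held 2.45% of the narrower ones in all. With the whole ISRE asked for within 100 bp of the interval centre the IRF8 72 h shares were 17.02% and 7.13% (adjusted exact p = 0.069). Whether the contrast by ISRE differed between the IRF8 and the IRF4 lists was not tested. Similar contrasts went with the EICE and were not tested either. IRF8 72 h held 18.75% of promoter intervals with an EICE and 5.97% without. For IRF4 72 h the shares were 15% and 5.47%, for IRF4 48 h 10% and 3.48%, and for any list 31.25% and 11.2%. By AP-1 site, IRF4 48 h held 12.66% with it and 2.98% without, and any list 24.05% and 12.66%.

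**Figure D5:**
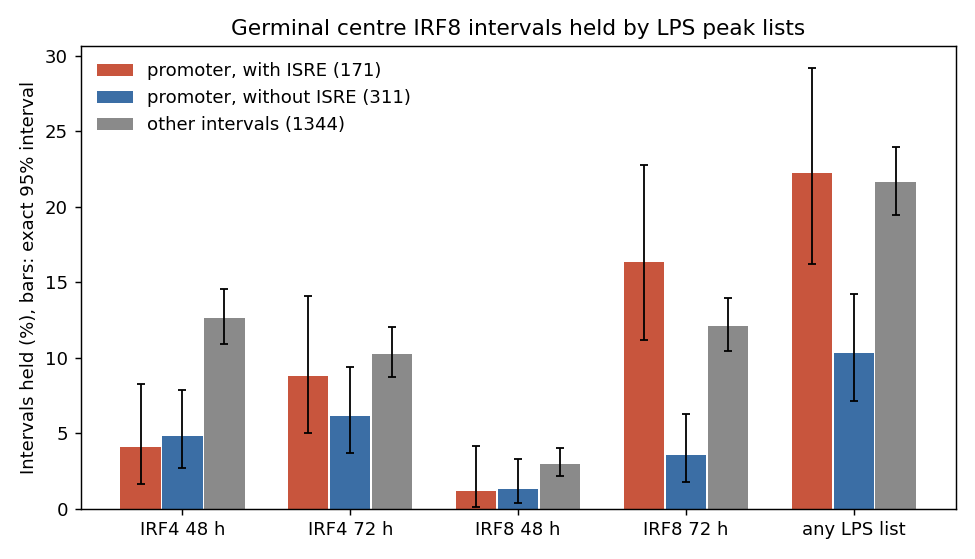
Share of germinal centre IRF8 intervals held by each LPS list (vertical axis, %), for promoter intervals with an ISRE (red), promoter intervals without (blue) and all other intervals (grey), with exact 95% intervals. For IRF8 at 72 h the promoter intervals with an ISRE reach 16.4% and those without 3.54%.

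The elements under the LPS peaks themselves are given list by list, without a test. Within 100 bp of the peak centre, an ISRE was present at 24 of the 39 IRF8 72 h peaks on promoter intervals (61.5%, 44.6 to 76.6%) and at 1 of the 22 IRF4 48 h peaks (4.55%, 0.115 to 22.8%). The ISRE was at 7 of the 34 IRF4 72 h peaks (20.6%, 8.70 to 37.9%). For IRF8 at 48 h it was at 1 of 6 (16.7%, 0.421 to 64.1%). The AP-1 site was at 8 of the 22 IRF4 48 h peaks (36.4%, 17.2 to 59.3%). It was at 5 of the 39 IRF8 72 h peaks (12.8%, 4.297 to 27.4%). For IRF4 at 72 h it was at 6 of 34 (17.65%, 6.76 to 34.5%), and for IRF8 at 48 h at 1 of 6. An EICE lay at 13 of 39 IRF8 72 h and 8 of 34 IRF4 72 h peaks. At 48 h it lay at 2 of 6 IRF8 and 3 of 22 IRF4 peaks. Counted over the whole interval, 20 of the 25 promoter intervals in an IRF8 list and no IRF4 list held an ISRE (80.0%, 59.3 to 93.2%), against 10 of the 30 in an IRF4 list and no IRF8 list (33.3%, 17.3 to 52.8%). Of the 412 in no LPS list, 133 held one.

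At 48 h the promoter intervals were held more often by IRF4 than by IRF8, and at 72 h the counts were close. At 48 h IRF4 held 22 and IRF8 6, with 20 in IRF4 only and 4 in IRF8 only (exact McNemar test, two-sided, adjusted p = 0.003). The IRF4 48 h list is much longer; with both lists limited to their 234 peaks of most tags, IRF8 held 1.25% and IRF4 0.830% (adjusted exact p = 1). At 72 h IRF8 held 39 and IRF4 34, with 27 and 22 in 1 list only (adjusted exact p = 0.568). Both factors were called at 15 promoter intervals over the 4 lists.

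The promoter intervals with the most IRF8 tags at 72 h were those of Erap1, Tcfeb, Wdfy4 and Usf1. Tags are the authors' values per 10000000 tags of the library, with exact Poisson intervals that cover counting error only. Erap1 had 64 tags for IRF8 at 48 h (42.5 to 92.5) and 143.5 at 72 h (104.3 to 192.7), and it was in neither IRF4 list. Tcfeb, which encodes TFEB, a regulator of lysosomal genes, was in all 4 lists, with 67.7 and 42.5 tags for IRF4 and 64 and 97.9 for IRF8 at 48 h and 72 h; it held no ISRE and no EICE but an AP-1 site. Wdfy4, a gene of antigen cross-presentation in dendritic cells, had 70.7 and 39.8 tags for IRF4 at 48 h and 72 h and 62 for IRF8 at 72 h. These intervals overlap within each gene except the pair of Erap1.

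Next came Usf1 (58.7 tags for IRF8 at 72 h), Nmi and Napsa (55.5 each), Psmb8 (52.2), Flt3l (48.9), BC017643 (45.7) and the shared start of 5033414D02Rik and Cd274 (42.4). Nmi encodes an interferon-inducible STAT partner, Napsa an aspartic protease and Flt3l a growth factor ligand. Usf1, Nmi, Psmb8, Flt3l and the Cd274 promoter held an ISRE. All IRF8 72 h peaks on promoter intervals ran from 26.1 to 143.5 tags with a median of 35.9, against 32.6 for the whole list, whose highest peak had 4711. The peak centres lay a median of 185 bp from the centres of the germinal centre intervals.

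In the IRF4 lists and no IRF8 list the most tags were at Stat3, Lrmp, Tlr9, Slc25a45 and Arid4b. Stat3, a cytokine-activated transcription factor, had 100.1 tags for IRF4 at 48 h (69.3 to 139.9) and 26.6 at 72 h (12.7 to 48.8); its interval was centred 880 bp downstream of the start, did not cover it and held no ISRE, EICE or AP-1 site. Lrmp, a lymphoid membrane protein gene, had 61.8 and 39.8 tags at 48 h and 72 h. The Lrmp interval held an ISRE but no EICE or AP-1 site. Tlr9, the sensor of unmethylated DNA, had 58.9 and 23.9, with an EICE and an AP-1 site in its interval. Slc25a45 (50) and Arid4b (41.2) were in the 48 h list alone, both with an AP-1 site. Arid4b also held an EICE.

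Among the named gene lists, the LPS lists held 5 of the 7 GTPase genes with an interval (Gbp2, Gbp3, Gbp7, Irgm1 and Irgm2), 5 of the 16 class I genes (Erap1, H2-K1, H2-Q7, Psmb8 and Tapbp), 3 of the 6 receptor and factor genes (Irf2, Socs1 and Stat3), 3 of the 16 antiviral genes (Dtx3l, Oas1b and Parp9) and 2 of the 3 class II genes (Cd74 and H2-DMb2). Over all promoter intervals the share held by any LPS list was 14.5%. The counts by gene list are small and pool the IRF4 and IRF8 lists. Gbp2 and Stat3 were in IRF4 lists alone. Gbp7 had 29.2 tags for IRF4 and 35.9 for IRF8 at 72 h, and Oas1b 23.9 and 35.9. H2-DMb2 was in all 4 lists with 35.3 and 42.5 tags for IRF4 and 22.9 and 39.1 for IRF8 at 48 h and 72 h, values whose Poisson intervals all overlap. Tap1, Tap2, Psme1, Psme2, B2m, Isg15, Ifih1 and Irf7 were in none of the LPS lists.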

How the data were processed

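The germinal centre list gives chromosome, start and end, with no score or signal, and was called with MACS per the labels' design text; its depth, control and threshold were not found in the sources used here. HOMER findPeaks gave the LPS lists, per the file headers, as peaks of 500 bp from libraries of 3065426 to 4375858 tags. Their signal, per the file headers a tag count that the authors normalised to 10000000 tags, ranked peaks within a list; the deposited findPeaks scores, folds and p-values were not used. The IRF8 72 h header marks its tags as a second replicate. BWA and Bowtie2 are named in the submitters' processing notes, without roles.

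Sequence came from NCBIM37 (mm9) and genes from GENCODE M1, with the TSSs of all transcripts of protein-coding genes; the nearest TSS belonged to a transcript of another class in 136 intervals. Flanks were an interval's length, split over both sides. Tests were exact (scipy 1.17.1) and adjusted by Benjamini-Hochberg at 0.05, the code was tested on simulated data, and intervals are at 95% and cover counting error only. An interval is multi-copy where the median 24-base word within 100 bp of its centre occurs more than 1 time in the genome. Repeats elsewhere in the interval were not measured. The members and the 24 gene lists were chosen with earlier results of these data known. Single genes were named by rule: most tags at IRF8 72 h or in IRF4 lists alone, widest, ISRE between paired starts, up to 4 per list, and those at the distance limit; other list members are given as the list's content.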

Additional observations from a re-analysis of the deposited data

How the results depend on the processing

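In all, 36 tested results were recomputed under 295 alternatives, and 234 kept their direction and their side of the threshold. ISRE and EICE against flanks did so under each flank, window, distance, copy-number and ISRE setting run. AP-1 against flanks, called under none, turned to 1.66 percentage points within 100 bp of the centre and 0.796 within 2500 bp of a TSS. Promoter and other intervals differed in ISRE within 100 bp of the centre (-4.98) and in narrower intervals (-10.4), and no longer in EICE in wider ones (-6.74); the uncalled ISRE difference turned to 5.85 in wider intervals and 3.99 with a C or T in the spacer.

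Promoter minus other shares in the LPS lists no longer passed in these cases. Within 500 bp of a TSS they were -1.37 (IRF4 72 h), -0.989 (IRF8 48 h), -2.34 (IRF8 72 h) and -5.31 points (any list). Within 2500 bp they were -1.74, -1.41 and -3.27 for the first 3. In wider intervals they were -2.004, -2.45, -2.64 and -4.73. For IRF8 48 h they were -0.980 in narrower intervals and -0.850 with LPS peaks of at least 32.6 tags.

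The ISRE difference in LPS hold no longer passed with the ISRE within 100 bp of the centre (9.90 points for IRF8 72 h, 12.2 for any list) or in wider intervals (11.1 and 8.63), nor for any list in narrower ones (6.11). IRF8 minus IRF4 at 48 h turned to 0.415 with lists of equal length. Within 100 bp of the centre the differences from flanks turned to -1.04 for SP1, -0.207 for NRF1 and CRE and -0.622 for NFY. The uncalled ISRE difference in hold turned to 0.324 for IRF4 48 h in narrower intervals, and for IRF8 48 h to 0.263 with the tag minimum, 0.206 in single-copy intervals, 1.37 in narrower ones and 0.343 with a C or T in the spacer. The settings on protein-coding transcripts alone and on the ISRE spacer were chosen after seeing the data and moved no ISRE, EICE, AP-1 or LPS result across the threshold. No paired analysis was possible because each group was 1 library, and leaving out a replicate was not possible for the same reason.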
